A study of Mus musculus with 6 samples.

Results

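Nuclear-encoded genes of the mitochondrial respiratory chain were followed in mouse CD4+ T cells exposed to tunicamycin. The members were the rows of the count table whose symbol begins with the names of the subunit and assembly gene families of complexes I to V, of cytochrome c or of cytochrome c1, with symbols ending in "-ps" left out. This gave 44 of 13685 rows. By role there were 26 subunits of the complexes, cytochrome c itself (Cycs), 13 assembly or coupling factors and 4 genes for a tissue-restricted isoform or a paralogue. RNA was sequenced from WT C57BL/6 cells of spleen and mesenteric lymph node in 3 tunicamycin libraries and 3 vehicle libraries. Per the labels' protocols, CD4+ T cells were isolated, the CD25-positive regulatory fraction was left out, and 1000000 cells per well were cultured for 4 h with tunicamycin at 0.15 µg/mL or with vehicle, and the titles call the vehicle cells untreated. The libraries of a group are labelled technical replicates, so every p-value below measures only the spread between libraries, and the number of animals behind them is not stated in those labels.

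The respiratory chain sits in the inner mitochondrial membrane. Complexes I and II feed electrons into ubiquinone, complex III passes them to cytochrome c, complex IV passes them to oxygen, and complex V, the ATP synthase, uses the resulting proton gradient to make ATP. Most subunits are encoded in the nucleus and imported, while a small core is encoded in mitochondrial DNA, and assembly factors help to join both sets without staying in the finished complex. Resting T cells rely largely on oxidative phosphorylation, and the chain is enlarged when they are activated. Tunicamycin stops N-linked glycans from being built and loads the endoplasmic reticulum with unfolded proteins.

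The table used here held rows for some genes of the transcriptome. The same name rule matches 108 protein-coding genes of GENCODE M21, of which 43 had a row (39.8%), against 8538 of 21951 for protein-coding genes in all (38.9%), and the remaining genes were not analysed here. Summed counts over the rows were 10584276 to 11211270 in tunicamycin libraries and 7412151 to 9495725 in vehicle libraries, and no 2 libraries of a group agreed within sampling noise (chi-square per degree of freedom 14.7 to 31.9). Levels are given as the deposited TPM, which is corrected for transcript length and depth. Markers of CD4 T cells (6 of 11 listed had a row: Cd3e, Cd3d, Trbc2, Cd28, Cd5 and Il7r) summed to 3392 to 3669 TPM in tunicamycin libraries and 3300 to 3613 TPM in vehicle libraries. The 4 plasma cell markers with a row summed to 26.1 to 190.9 TPM in tunicamycin and 21.4 to 183.7 TPM in vehicle, and the 3 NK cell markers to 9.82 to 14.6 TPM in tunicamycin and 8.23 to 10.6 TPM in vehicle. The 2 B cell markers stood at 0.66 to 1.13 TPM in tunicamycin and 0.89 to 1.14 TPM in vehicle. Cd8b1, the CD8 T cell marker with a row, had 10.5 to 11.9 TPM in tunicamycin and 9.47 to 10.8 TPM in vehicle. Il2ra, the regulatory T cell marker with a row, had 7.74 to 14.05 TPM in tunicamycin and 6.87 to 8.41 TPM in vehicle. The part of these other cells in the results was not tested, and in bulk RNA fewer cells of a type and less RNA per cell cannot be told apart.

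In tunicamycin libraries the transcripts of the respiratory chain were close to their vehicle levels. Members held 0.549% ± 0.018 of the counts in tunicamycin libraries and 0.536% ± 0.015 in vehicle libraries, and their TPM summed to 3370 ± 109 in tunicamycin and 3345 ± 98.4 in vehicle (SD, n = 3 each). After a filter on low counts 41 members were tested, and Ndufs6b, Cox6a2 and Cox8c were not. None of the 41 was called higher or lower by edgeR's quasi-likelihood test with Benjamini-Hochberg adjustment over all 3613 genes tested, in which 3 genes were called (0.083%). DESeq2, which called 23 genes (0.637%), and limma on log2(TPM + 1), which called 1 (0.0277%), also called 0 members. At an unadjusted p under 0.05 in edgeR there were 2 members, Cox16 and Ndufa4, of 41, where the same rule took 232 of all genes tested (6.42%). That count was 1 without vehicle replicate 2 and 4 without vehicle replicate 1.

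The fold changes scattered evenly around 0. Of the 41 members, 21 lay above and 20 below, with a median log2 fold change of 0.0009 against 0.0007 over all genes tested, and the values ran from -0.22 for Ndufa4 to 0.66 for Cox7a1. By role, the subunits with cytochrome c had 11 above and 16 below (median -0.02). The assembly or coupling factors had 9 above and 4 below (median 0.06), and a difference between these roles was not tested. The intervals of these fits cover only the spread between libraries on the count scale. The 95% interval of the fold change lay inside 1.5-fold in both directions for 35 of 41 members (85.4%), against 52.8% of all genes tested. Level went with this share. Above an average of 5 log2 CPM (counts per 1000000 with TMM scaling) the interval lay inside 1.5-fold for 33 of 34 members (97.1%) and for 93.8% of all genes. All 26 subunits and cytochrome c had such an interval, and the members without it were Cox16, Cox7a1 and 4 further assembly or coupling factors, Ndufaf7, Sdhaf3, Sdhaf4 and Atp5s. Inside 2-fold lay 40 of 41 intervals, with Cox7a1 as the exception. The plot of fold changes by member shows these intervals complex by complex.

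**Figure D1:**
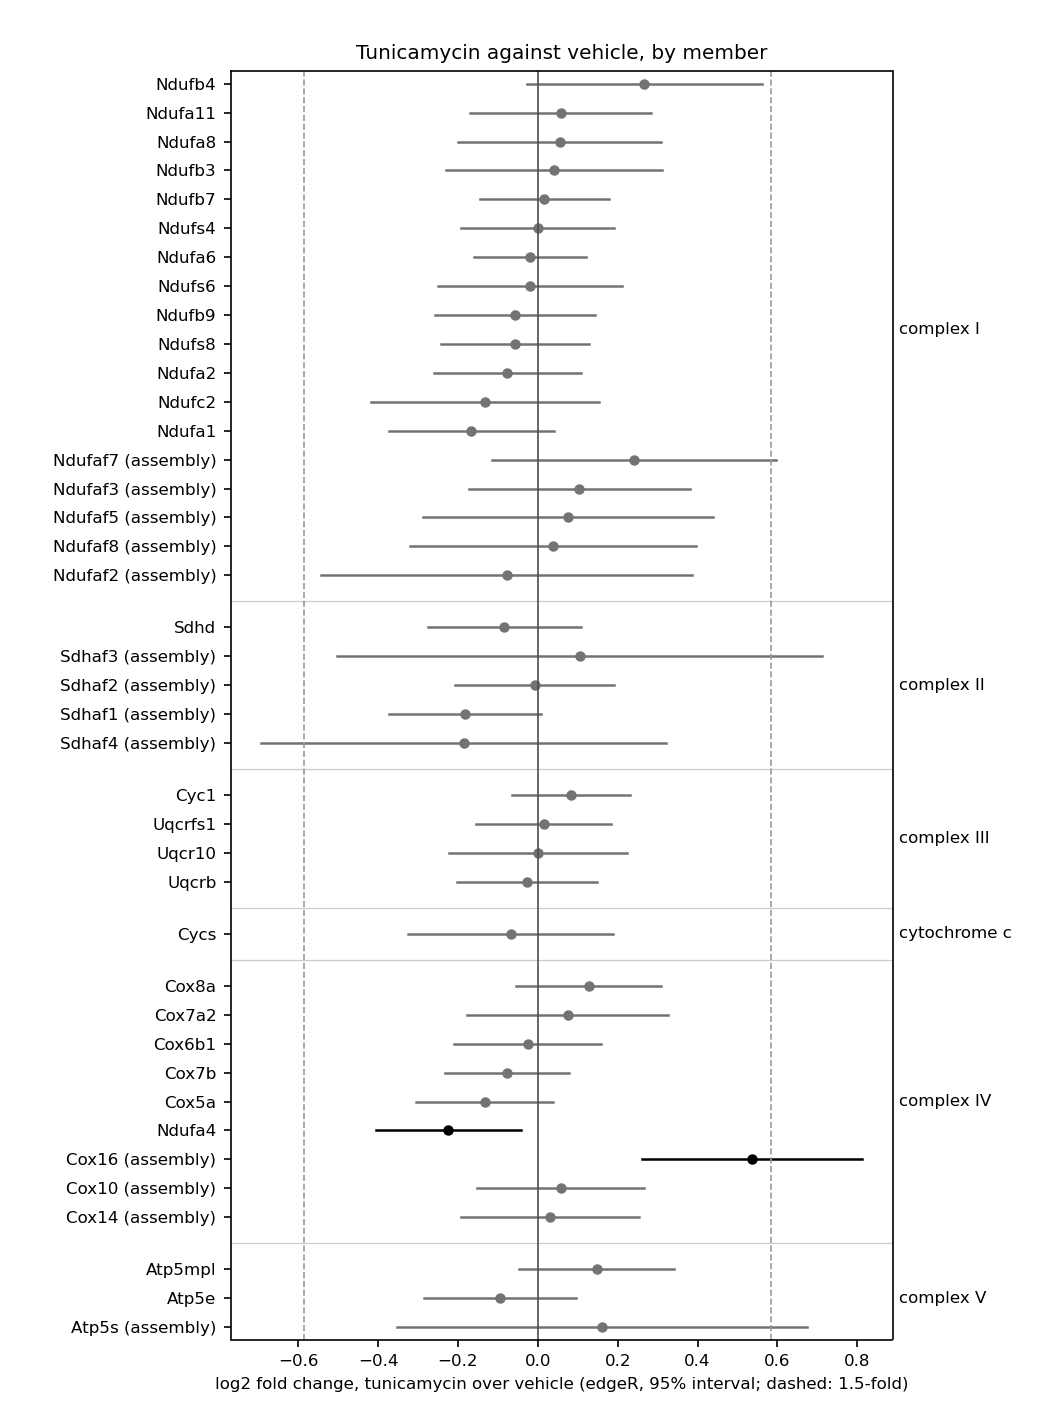
Log2 fold change of tunicamycin over vehicle (horizontal axis) for the 40 tested members other than the isoform Cox7a1, by complex, as points with 95% intervals from edgeR, and with the dashed lines at 1.5-fold. Only the intervals of Cox16 and Ndufa4, drawn in black (unadjusted p under 0.05), leave out 0, and neither passed adjustment over all genes.

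Members whose libraries did not overlap between groups were few, near the share among all genes. On the CPM scale 2 of 41 members had all tunicamycin libraries above all vehicle libraries, Cox16 and Atp5mpl, where 6.62% of all genes tested did. In 3 members, Ndufa4, Cox5a and Ndufa1, all tunicamycin libraries lay below, where 5.95% of all genes did. Single libraries also stood apart within their own group. Taken as the median deviation of members from their mean, in log2 CPM, tunicamycin replicates 1 to 3 stood at 0.05, -0.06 and 0.01, and vehicle replicates 1 to 3 at -0.01, -0.03 and 0.08. Tunicamycin replicate 2 was the lowest library and vehicle replicate 3 the highest.

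Cox16, the assembly factor that helps to fit the COX2 subunit into complex IV, had the largest difference of any member with more than a trace of RNA. The gene (ENSMUSG00000091803) lies on the minus strand at chr12:81359026-81485127 of GRCm38. Its level was 84.9, 82.4 and 78.4 TPM in tunicamycin replicates 1 to 3, against 60.8, 62.0 and 62.6 TPM in vehicle replicates 1 to 3. Every tunicamycin library was above every vehicle library, and the replicates of each group lay close together. In CPM it averaged 56.5 ± 2.33 in tunicamycin and 38.9 ± 3.28 in vehicle (SD, n = 3 each). The log2 fold change was 0.54 with an SE of 0.13 and a 95% interval of 0.26 to 0.81 (edgeR unadjusted p = 0.0012, adjusted p = 0.31), so it missed the threshold. It did so in all 19 other settings too, with edgeR, DESeq2 and limma adjusted p between 0.069 and 1.00 and log2 fold changes between 0.35 and 0.61. The lowest of these, 0.35 against 0.54 in the reported fit, came with offsets for effective transcript length. With limma on log2(TPM + 1) the log2 fold change was 0.40. The annotation places 2130 bp of Cox16 exon sequence on the same strand as Gm20498, a protein-coding model that was not analysed here, so how reads were divided between them bears on this value and was not tested.

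Ndufa4 was the other member with an unadjusted p under 0.05. Once assigned to complex I, its product is known as a subunit of complex IV and is counted there. The gene (ENSMUSG00000029632, chr6:11900292-11907497 of GRCm38, minus strand) had 168.2, 159.5 and 185.4 TPM in tunicamycin replicates 1 to 3, against 206.2, 219.0 and 194.5 TPM in vehicle replicates 1 to 3. All tunicamycin libraries were below all vehicle libraries, with a gap between the groups narrower than the range within either. The log2 fold change was -0.22 with an SE of 0.08 and an interval of -0.41 to -0.04 (edgeR unadjusted p = 0.020, adjusted p = 0.63). Over the other settings it lay between -0.33 and -0.16, with adjusted p of 0.21 to 1.00. The annotation holds 3 pseudogene copies of Ndufa4 with at least 90% identity, which were not analysed here.

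**Figure D2:**
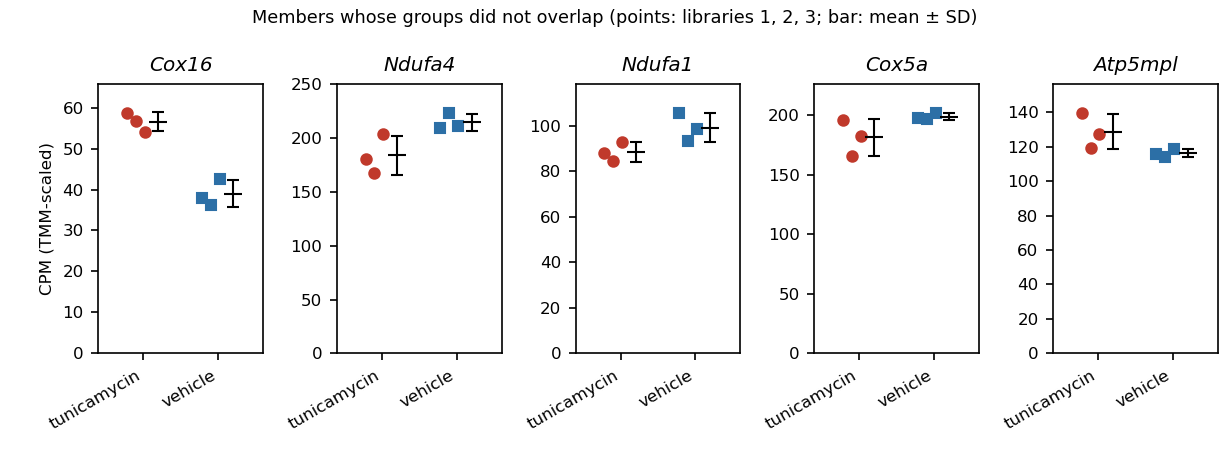
TMM-scaled CPM (vertical axes, each from 0) of the 5 members whose libraries did not overlap between groups, with replicates 1 to 3 as points, tunicamycin left of vehicle, and mean ± SD bars. Cox16 averages 56.5 in tunicamycin and 38.9 in vehicle with clear space between the groups. In Atp5mpl, Cox5a and Ndufa1 the nearest libraries of the groups nearly touch.

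Complex I, the NADH dehydrogenase and the largest of the complexes, was represented by 13 subunits. Their median log2 fold change was -0.02, with 5 above and 8 below 0, and the 95% intervals of all 13 lay inside 1.5-fold. The accessory subunit Ndufa6 had the highest level of any member, with 278.2, 251.1 and 286.5 TPM in tunicamycin replicates 1 to 3, against 256.2, 260.8 and 250.2 TPM in vehicle replicates 1 to 3. The groups overlapped, with a log2 fold change of -0.02 (interval -0.16 to 0.12), a direction that turned to 0.09 with limma on log2(TPM + 1) and to 0.02 without a composition factor. Ndufa1, a small X-linked subunit that is essential for the assembly of the membrane arm, had 122.5, 119.4 and 126.4 TPM in tunicamycin, against 157.2, 139.4 and 135.5 TPM in vehicle. All tunicamycin libraries were below all vehicle libraries, with a log2 fold change of -0.17 (interval -0.37 to 0.04, edgeR adjusted p = 0.84) and one of -0.29 with effective-length offsets. This gene has 8 pseudogene copies in the annotation, none of them analysed here. Ndufb4, an accessory subunit, was at the other end of the subunits, with 117.5, 119.1 and 96.6 TPM in tunicamycin and 109.7, 89.5 and 68.3 TPM in vehicle. Its groups overlapped, and the log2 fold change was 0.27 (interval -0.03 to 0.56, edgeR adjusted p = 0.82). The annotation holds 2 pseudogene copies of Ndufb4 without a row, among them Ndufb4c at 100% identity over 390 bp.

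The remaining complex I subunits stayed nearer to 0. Ndufs8, which carries iron-sulphur clusters of the electron path, was the lowest subunit of all at 35.0 TPM over the 6 libraries, with a log2 fold change of -0.06 (interval -0.24 to 0.13). Ndufs4, a subunit whose loss in mice and humans causes Leigh-like disease, had 94.3, 84.5 and 84.5 TPM in tunicamycin and 78.7, 62.2 and 74.9 TPM in vehicle. Its groups did not overlap in TPM, yet on the count scale that the test used the log2 fold change was -0.0006 (interval -0.19 to 0.19). The count scale and the TPM scale therefore ranked this gene differently, and the cause was not tested. Ndufa2, Ndufa8, Ndufa11, Ndufb3, Ndufb7, Ndufb9, Ndufc2 and Ndufs6, accessory subunits, ran from -0.13 for Ndufc2 to 0.06 for Ndufa11. The exons of Ndufb9 overlap Gm49356 on the same strand by 201 bp, a model not analysed here. The 5 assembly factors of complex I had log2 fold changes of 0.24 for Ndufaf7, a methyltransferase, 0.10 for Ndufaf3, 0.08 for Ndufaf5, 0.04 for Ndufaf8 and -0.08 for Ndufaf2, and none had an unadjusted p under 0.05.

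Complex II, the succinate dehydrogenase that also serves the tricarboxylic acid cycle, was represented by a single subunit. Sdhd, one of its membrane anchors, had 55.3, 49.9 and 53.8 TPM in tunicamycin replicates 1 to 3, against 53.8, 55.1 and 59.5 TPM in vehicle replicates 1 to 3. The groups overlapped, with a log2 fold change of -0.08 (interval -0.28 to 0.11, edgeR adjusted p = 0.94). It was -0.015 without vehicle replicate 3, -0.022 without tunicamycin replicate 2 and -0.13 without vehicle replicate 1. Its 4 assembly factors had a median log2 fold change of -0.10. Sdhaf1, which guards the iron-sulphur subunit during its maturation, had 16.4, 18.5 and 16.3 TPM in tunicamycin and 17.3, 19.0 and 17.5 TPM in vehicle, with a log2 fold change of -0.18 (interval -0.37 to 0.01, edgeR adjusted p = 0.79). Sdhaf2, which attaches FAD to the catalytic subunit, was at -0.01. Sdhaf3 and Sdhaf4 had the fewest counts among the complex II members and wide intervals, -0.50 to 0.71 and -0.69 to 0.32.

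Complex III, the cytochrome bc1 complex, had the narrowest range of fold changes among the complexes with several subunits. The log2 fold changes of its 4 subunits ran from -0.03 for Uqcrb, through 0.0009 for Uqcr10 and 0.02 for the Rieske iron-sulphur protein Uqcrfs1, to 0.08 for cytochrome c1 (Cyc1). Uqcrb, a subunit near the quinone-binding site, had 125.9, 126.7 and 130.7 TPM in tunicamycin, against 137.1, 129.0 and 129.7 TPM in vehicle, with overlapping groups. Without a composition factor its log2 fold change of -0.03 turned to 0.02. Cyc1, the haem protein that hands electrons on to cytochrome c, had 56.3, 74.8 and 58.1 TPM in tunicamycin and 59.5, 48.2 and 58.0 TPM in vehicle, also overlapping (edgeR adjusted p = 0.91), and its log2 fold change was 0.034 without tunicamycin replicate 2 and 0.18 with limma on log2(TPM + 1). Cytochrome c itself, the soluble carrier between complexes III and IV and a trigger of the apoptosome once released from mitochondria, was at 18.0, 18.2 and 15.4 TPM in tunicamycin and 16.8, 16.5 and 20.8 TPM in vehicle. The Cycs groups overlapped, with a log2 fold change of -0.07 (interval -0.32 to 0.19, edgeR adjusted p = 0.97), and the value was 0.040 without tunicamycin replicate 3, -0.18 without tunicamycin replicate 1 and -0.0069 without vehicle replicate 3.

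Complex IV, cytochrome c oxidase, held the members with the largest differences in both directions. Besides Ndufa4, its 5 other subunits had log2 fold changes from -0.13 for Cox5a to 0.13 for Cox8a. Cox5a, a subunit on the matrix side, had 153.0, 129.7 and 141.7 TPM in tunicamycin and 153.6, 155.2 and 147.2 TPM in vehicle. Its groups overlapped in TPM but not in CPM, where the highest tunicamycin library stood at 196.0 and the lowest vehicle library at 196.7 (edgeR adjusted p = 0.84), and without tunicamycin replicate 2 its log2 fold change was -0.066. Cox8a, the ubiquitous form of a small membrane subunit, was the highest member of complex IV, with 207.8, 217.5 and 196.9 TPM in tunicamycin and 176.9, 175.1 and 202.2 TPM in vehicle. The groups overlapped through vehicle replicate 3 (log2 fold change 0.13, interval -0.05 to 0.31, edgeR adjusted p = 0.86), and the log2 fold change was 0.22 without that library and 0.080 without vehicle replicate 1. Cox6b1, Cox7b and Cox7a2 had log2 fold changes of -0.02, -0.08 and 0.07. Beside Cox16, the assembly factors Cox10, which makes haem O for the enzyme, and Cox14, which binds newly made COX1, were at 0.06 and 0.03.

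Complex V was represented by 2 small subunits and a coupling factor. Atp5e, the epsilon subunit of the catalytic F1 part, had 255.9, 259.8 and 222.5 TPM in tunicamycin, against 277.5, 247.6 and 282.4 TPM in vehicle, with overlapping groups and a log2 fold change of -0.09 (interval -0.28 to 0.09, edgeR adjusted p = 0.92). It was -0.010 without vehicle replicate 3, -0.17 without vehicle replicate 2 and -0.19 with effective-length offsets. Atp5mpl, a small proteolipid of the membrane part, had 253.5, 217.1 and 221.4 TPM in tunicamycin and 224.6, 215.0 and 214.7 TPM in vehicle. Its groups overlapped in TPM but not in CPM, where the lowest tunicamycin library stood at 119.2 and the highest vehicle library at 118.8. The log2 fold change was 0.15 (interval -0.05 to 0.34, edgeR adjusted p = 0.84). That value was 0.022 with effective-length offsets, 0.077 with limma on log2(TPM + 1) and 0.084 without tunicamycin replicate 1. Atp5s, named as a coupling factor of the synthase, was far lower at 6.96, 13.2 and 9.22 TPM in tunicamycin and 10.6, 6.86 and 8.70 TPM in vehicle, with an interval of -0.35 to 0.67.

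The levels of the subunits differed between complexes. By the median TPM of the subunits analysed, complex V came first at 241 TPM (2 subunits), followed by complex IV at 176.9 (6 subunits), complex III at 105.4 (4 subunits), complex I at 60.3 (13 subunits) and complex II at 54.6 (Sdhd alone). This order was the same in all 6 libraries. The library medians averaged 238 ± 16.4 TPM in tunicamycin and 244 ± 10.8 TPM in vehicle for complex V, 162.5 ± 10.98 TPM in tunicamycin and 177.3 ± 17.4 TPM in vehicle for complex IV, and 107 ± 10.6 TPM in tunicamycin and 103 ± 4.06 TPM in vehicle for complex III (SD, n = 3 each). For complex I they averaged 62.2 ± 2.53 TPM in tunicamycin and 60.6 ± 3.66 TPM in vehicle, and for complex II 53.0 ± 2.78 TPM in tunicamycin and 56.1 ± 2.99 TPM in vehicle. The step between complexes I and II was the smallest of the 4. The order depended on how length was taken into account. With CPM per kb of all annotated exon sequence in place of TPM, complex III ranked 1, complex IV 2, complex II 3, complex V 4 and complex I 5. It also rests on the subunits with a row, which are few for complexes II and V.

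**Figure D3:**
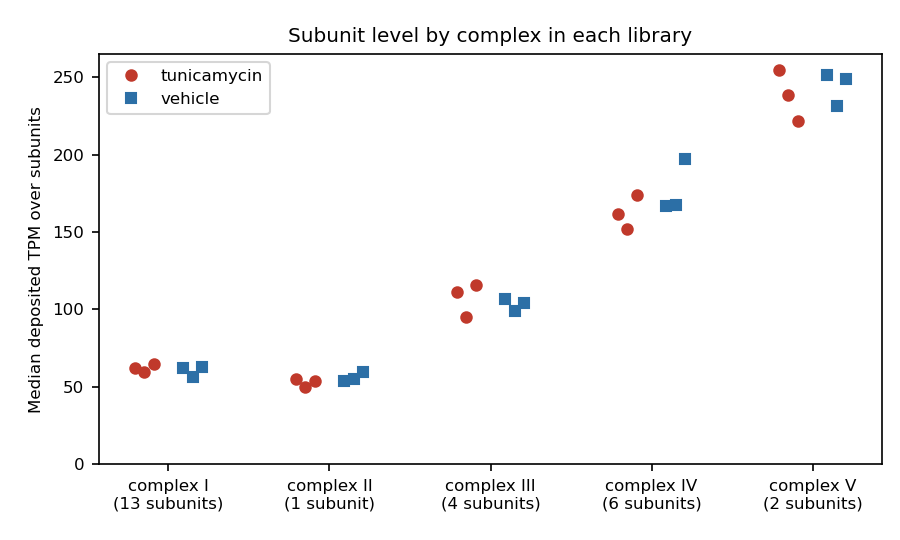
Median deposited TPM over the subunits of each complex (vertical axis, from 0) in every library, tunicamycin left of vehicle, replicates 1 to 3 from left to right. The complexes keep the order V, IV, III, I and II in all 6 libraries, and the 2 groups of libraries overlap within each complex.

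Within the complexes the subunits formed a graded series. Mean levels over the 6 libraries ran from 35.0 TPM for Ndufs8 to 263.8 TPM for Ndufa6, a 7.53-fold range, and the median subunit lay at percentile 93.3 of all genes tested, whose median was 7.55 TPM. Ordered by level with cytochrome c at the end, the 27 genes make 26 neighbouring pairs, and the upper gene was higher in all 6 libraries in 5 of them. These were Atp5e over Atp5mpl, Cox7b over Cox5a, Uqcrfs1 over Ndufs4, Ndufa8 over Ndufs8, and Ndufs8 over Cycs. In 9 pairs the mean log2 ratio was larger than its SD over libraries. The genes were ordered on these same 6 libraries, so the direction and closeness of neighbours follow in part from the sorting, and these counts are not a test. Replicates varied little, with a median coefficient of variation over subunits of 7.33% in tunicamycin and 6.90% in vehicle. Assembly factors were lower, from 2.96 TPM for Sdhaf3 to 71.9 TPM for Cox16 with a median of 11.4 TPM, and 16 subunits were above every assembly factor. Cycs, at 17.6 TPM, lay among the assembly factors rather than the subunits.

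**Figure D4:**
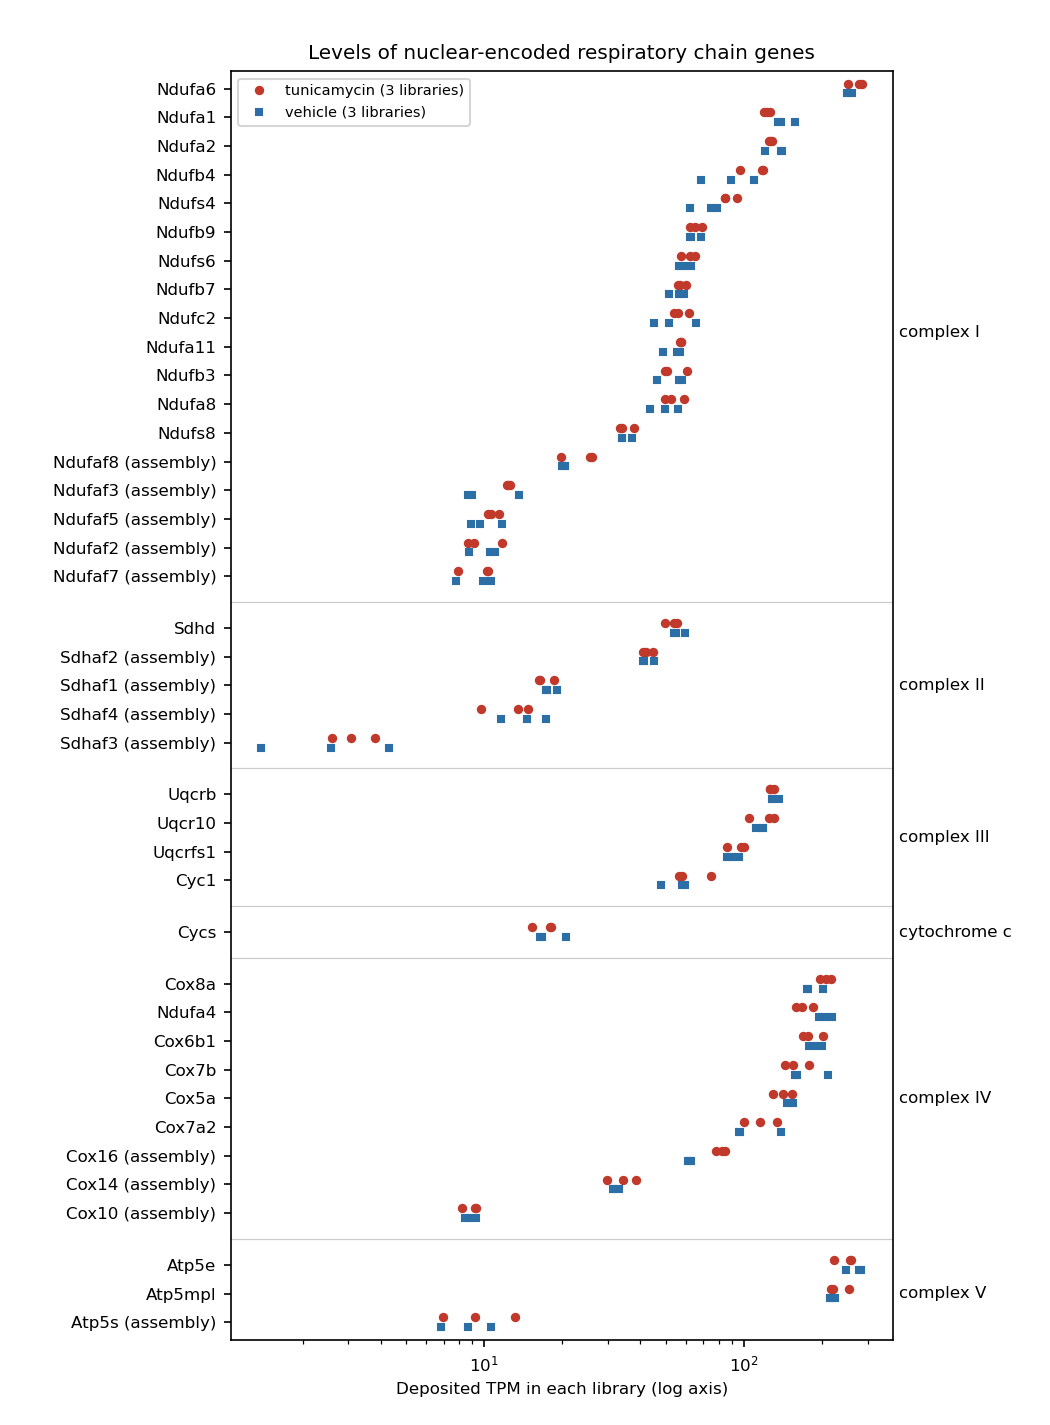
Deposited TPM (horizontal log axis) of the 26 subunits, Cycs and the 13 assembly or coupling factors (marked "assembly") in each library, grouped by complex, with tunicamycin above vehicle for each gene. Subunits lie between 35.0 and 263.8 TPM on average and assembly factors between 2.96 and 71.9 TPM, and for most genes the points of the groups interleave.

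Isoforms that belong to other tissues were at or near 0. Cox6a2, the heart and skeletal muscle form of COX6A, and Cox8c, a form found in testis, had 0 counts in every library, which allows up to 0.268 to 0.283 CPM in tunicamycin libraries and 0.316 to 0.405 CPM in vehicle libraries (3 counts of the summed counts, counting error only). Cox7a1, the muscle and heart form of COX7A, had 1.46, 0.65 and 1.26 TPM in tunicamycin and 0, 1.92 and 0.77 TPM in vehicle, too few to place its fold change more closely than -1.62 to 2.95 on the log2 scale. The ubiquitous counterparts Cox8a and Cox7a2 averaged 196.1 and 113.5 TPM. Ndufs6b, annotated as a processed pseudogene and aligned here to Ndufs6, had counts in 2 libraries, tunicamycin replicate 3 with 0.21 TPM and vehicle replicate 3 with 0.90 TPM. The annotation holds 38 pseudogene copies of 13 members with at least 90% identity over at least 100 bp. Only 3 of them had a row, and none took more than 0.43% of its parent's count (Cox7b). The 9 copies of Cycs, 8 of Ndufa1 and 4 each of Uqcrb and Cox7b make those levels less certain. So does Ndufb4c, at 100% identity, for Ndufb4. Of the 2 rows left out for "-ps" in the symbol, Ndufb1-ps, a non-coding model by its annotation, had 43.5 ± 5.29 TPM in tunicamycin and 35.4 ± 5.85 TPM in vehicle (SD, n = 3 each), with a log2 fold change of 0.19 (interval -0.10 to 0.48), and Atp5c1-ps was listed at 0.

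The partner subunits encoded in mitochondrial DNA were far more abundant per length. All 13 were measured, and their deposited TPM summed to 104000 ± 7503 in tunicamycin libraries and 108700 ± 6217 in vehicle libraries (SD, n = 3 each). The ratio of this sum to the sum over the 44 members was 30.3, 33.6 and 28.7 in tunicamycin replicates 1 to 3, against 30.8, 35.8 and 31.0 in vehicle replicates 1 to 3, so the groups overlapped. None of the 13 was called by edgeR, DESeq2 or limma, and 6 had an unadjusted p under 0.05 in edgeR, against 183 of 1912 genes with at least 5 log2 CPM. Those 6 were mt-Nd1, mt-Nd2, mt-Nd3, mt-Nd4l and mt-Atp8, at log2 fold changes of -0.24 to -0.18, and mt-Nd6 at 0.51. In TPM the groups stood closer for mt-Nd3, with 3412 ± 110 in tunicamycin and 3424 ± 174 in vehicle, and for mt-Nd4l, with 4091 ± 380 in tunicamycin and 4307 ± 317 in vehicle (SD, n = 3 each). The transcript mt-Nd6 is the only one of the subunits encoded on the light strand, and it had 246 ± 33.4 TPM in tunicamycin and 147 ± 33.0 TPM in vehicle (SD, n = 3 each). The core complex IV subunits mt-Co1, mt-Co2 and mt-Co3 were at -0.08, -0.01 and -0.05.

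Among other genes that build or feed the chain, 1 was called. Of 43 further assembly factors with other names, 17 were tested and 0 were called by edgeR, with 2 at an unadjusted p under 0.05, which were Dmac1 at -0.38 and Tmem126b at 0.28, both assembly factors of the complex I membrane arm. Of 19 regulators of mitochondrial gene expression 2 were tested, Tfb1m and Twnk, at -0.25 and -0.10, with 0 called and 0 at an unadjusted p under 0.05. Of 18 genes of the tricarboxylic acid cycle 2 were tested with 0 called. Citrate synthase (Cs) was at -0.05, and Suclg2, a subunit of succinate-CoA ligase, at -0.24 had an unadjusted p under 0.05. Of 27 genes for other electron entry points, ubiquinone synthesis and adenine nucleotide carriers, 7 were tested and 1 was called higher, Nnt, the transhydrogenase that makes NADPH from NADH. It had 2.89 ± 1.34 TPM in tunicamycin (SD, n = 3) and was listed at 0 in every vehicle library (edgeR adjusted p = 0.0035). The log2 fold change was 11.07 (interval 9.02 to 13.1) in edgeR. With vehicle at 0 its size depended on the method. It was 1.89 with limma on log2(TPM + 1) and 4.78 with limma on log2(TPM + 0.1), both outside that interval. The size of the change is therefore not fixed by these data, and what lies behind this all-or-none difference at a low level was not tested. Without vehicle replicate 2 the edgeR adjusted p was 0.089 and with limma on log2(TPM + 1) it was 0.17, within a range of 3.2e-13 to 0.69 over all settings. The remaining 6 included the ADP/ATP carriers Slc25a4 and Slc25a5, at -0.09 and -0.04. DESeq2 called 1 gene of the electron entry list and 0 of the others, and limma on log2(TPM + 1) called 0 in each.

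Promoters of members were searched for 6 short motifs, each read on both strands, in RefSeq windows of GRCm38.p6 that run from 250 bases before to 50 bases after each start. Windows were searched for 35 of the 44 members, and the other 9, Ndufa2 among them, were not searched. A gene was counted where any of its windows held a match. The core of the site of NRF1, a factor known for driving respiratory chain genes, was searched as GCGCATGC. It was present in 5 of 35 members (14.3%), against 3.05% of all 27025 genes and 3.94% of 17492 protein-coding genes. The ETS-family site bound by GABPA (NRF2), CCGGAAG, was in 13 of 35 members (37.1%), against 9.93% of all genes and 12.9% of coding genes. The YY1 motif AAGATGGC was in 4 members (11.4%, against 3.19% of all genes and 3.57% of coding genes). The cyclic AMP response element TGACGTCA was in 3 (8.57%, against 2.03% of all genes and 2.54% of coding genes). The element TTGCATCA, a form bound by ATF4 with C/EBP partners, was in 0 of 35 members, against 1.03% of all genes. TGACGTGG, a form bound by XBP1 and ATF6 that shares its first 6 letters with TGACGTCA, was in 0 of 35, against 0.714% of all genes. Matches are descriptions of these letters in these windows and say nothing about binding in these cells.

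The stretches of promoter outside annotated exons are shown for the 2 members with an unadjusted p under 0.05, for cytochrome c and for the highest members of complexes I and V, so that the letters behind the motif counts can be seen next to the values above. All are RefSeq sequence of GRCm38.p6 from the minus strand, written 5′ to 3′ toward the start, with a motif match in capitals. Those of Atp5e, Ndufa6 and Ndufa4 end 4, 31 and 47 bases short of the start.
Cox16, chr12:81485138-81485387: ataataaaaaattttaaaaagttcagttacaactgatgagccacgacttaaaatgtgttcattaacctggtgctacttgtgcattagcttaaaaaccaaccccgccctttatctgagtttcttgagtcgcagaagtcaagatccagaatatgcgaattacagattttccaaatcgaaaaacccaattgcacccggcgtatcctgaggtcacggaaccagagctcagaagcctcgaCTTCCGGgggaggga
Ndufa4, chr6:11907498-11907700: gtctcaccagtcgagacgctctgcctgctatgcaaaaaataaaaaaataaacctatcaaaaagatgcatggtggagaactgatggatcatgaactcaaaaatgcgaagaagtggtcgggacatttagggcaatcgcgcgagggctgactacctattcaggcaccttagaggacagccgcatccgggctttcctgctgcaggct
Cycs, chr6:50566570-50566642: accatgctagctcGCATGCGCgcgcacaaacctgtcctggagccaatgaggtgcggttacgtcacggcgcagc
Ndufa6, chr15:82354323-82354541: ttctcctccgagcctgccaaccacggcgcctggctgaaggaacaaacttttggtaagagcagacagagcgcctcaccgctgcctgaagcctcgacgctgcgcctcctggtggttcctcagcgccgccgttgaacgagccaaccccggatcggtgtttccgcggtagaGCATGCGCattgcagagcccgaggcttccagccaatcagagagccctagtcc
Atp5e, chr2:174464106-174464351: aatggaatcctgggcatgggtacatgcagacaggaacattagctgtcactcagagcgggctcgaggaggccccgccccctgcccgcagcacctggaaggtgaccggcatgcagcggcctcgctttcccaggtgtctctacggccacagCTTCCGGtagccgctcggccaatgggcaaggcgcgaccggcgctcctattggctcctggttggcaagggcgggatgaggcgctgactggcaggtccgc
In Cox16 the capitals mark an ETS site read on the other strand, at position -15 counted from the start, and Atp5e carries the same letters at -102. In Cycs and Ndufa6 the capitals mark the NRF1 core on the other strand, at -60 and -83. The Cycs window also holds TGACGTCA at -169, outside the stretch shown. The Ndufa4 stretch holds none of the 6 motifs. Among these 5 genes, those with a match had log2 fold changes of 0.54 for Cox16, -0.09 for Atp5e, -0.07 for Cycs and -0.02 for Ndufa6, and Ndufa4, with none, was at -0.22. These genes were picked by p-value, level or function. Outside them, members with the ETS site went both ways, as with Cox8a at 0.13 and Sdhaf1 at -0.18. Ndufb4, with no match, was at 0.27. Whether motifs go with fold change was not tested.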

How the data were processed

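RNA of 3 tunicamycin and 3 vehicle libraries of mouse CD4+ T cells was analysed, with groups taken from the labels. Sequencing used 200 ng of total RNA per library and paired reads of 150 bp, per the labels' protocols. Salmon, bcl2fastq, DESeq2 and GRCm39 are named without a role or version in the submitters' processing notes, and for the annotation and the use of strand nothing is given in the sources used here. The authors deposited estimated counts per gene, partly fractional and not scaled for depth, and TPM for the same rows, of which 6932 of 13685 were at 0 throughout. Effective lengths behind the TPM were not at hand, so levels between genes rest on the authors' length correction. The rows cover a part of the transcriptome, so their sums are not library depths.

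The deposited estimated counts were rounded and fitted in edgeR 4.0.16 (R 4.3.3) across all genes passing filterByExpr, 3613 in all, with TMM scaling, a robust 2-sided quasi-likelihood F test, Benjamini-Hochberg adjustment and a threshold of 0.05. Members and gene lists were chosen with earlier results of these data known. Values are given per library for members with an unadjusted p under 0.05, the highest tested member of each complex, Cycs, Cyc1 and members whose groups did not overlap, and other members are named as examples. Other settings were other scalings and filters, DESeq2 1.42.0, limma 3.58.1 on log2(TPM + 1) and log2(TPM + 0.1), offsets for effective length from the count-to-TPM ratio, a replicate block and leaving out each library. Counting Ndufb1-ps as a member and Ndufa4 in complex I were added after seeing the data. Symbols, positions and overlaps came from GENCODE M21 (GRCm38), whose positions were not converted, and promoters from RefSeq (GRCm38.p6). Pseudogene copies were annotated pseudogene transcripts aligned to members with blastn 2.17.0 over at least 50% of the copy.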

Additional observations from a re-analysis of the deposited data

How the results depend on the processing

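No member was called in either direction under any of the 19 other settings, and their median log2 fold change stayed between -0.04 and 0.05. Members with an unadjusted p under 0.05 numbered 2 in the reported fit, 1 without a composition factor, 4 under each of the 3 limma settings and 1 to 4 when a library was left out. Over all genes, 2 were called higher and 1 lower in the reported fit. Higher calls numbered 10 without a filter, 12 with DESeq2 and 1 with limma on log2(TPM + 1), with or without a filter. Lower calls numbered 6 without a filter, 11 with DESeq2, 2 with DESeq2 size factors or without mitochondrially encoded genes, and 0 without a composition factor, under the limma settings and with effective-length offsets. Leaving out a library gave 1 to 4 higher and 0 to 1 lower calls. The cause of these shifts was not tested. Directions turned for Ndufa6 (-0.02), to 0.023 without a composition factor, 0.086 under the 3 limma settings and 0.030 with effective-length offsets, with -0.059 to 0.044 over the left-out libraries. They also turned for Uqcrb (-0.03), to 0.016 without a composition factor, and for Cycs (-0.07), at -0.18 to 0.040 over the left-out libraries. Ranks of the complexes moved to 1 for complex III, 3 for complex II, 4 for complex V and 5 for complex I with CPM per kb of exon, and to 2 for complex III and 3 for complex IV with assembly factors and isoforms counted. The labels do not say what a replicate number shares, so no pairing was used in the reported fit. Same-numbered deviations correlated at 0.04, 0.19 and 0.11. Each of the 6 libraries correlated best with its own number, a hint from the data and not the design. With a replicate block 14 genes were called higher, 22 lower and 0 members, with 4 members at an unadjusted p under 0.05. Low counts limit the Cox7a1, Sdhaf3, Sdhaf4 and Atp5s values.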
